A study of Homo sapiens with 6 samples.

Results

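F-box proteins are the adaptors that bring substrates to SCF ubiquitin ligases, and their genes were followed here in WPMY-1 cells, a human prostate stromal line of myofibroblast character. The genes were taken by symbol: every listed *FBXO*, *FBXL* or *FBXW* symbol followed by a number, together with the SCF core genes *SKP1*, *SKP2*, *CUL1* and *RBX1*. Of the 15924 genes listed, 64 were taken, namely 34 *FBXO*, 17 *FBXL*, 9 *FBXW* and the 4 core genes, and 1 antisense symbol was left out. After the filter on low counts, 60 of the 64 were tested among 13188 genes. *FBXL16*, *FBXL22*, *FBXO15* and *FBXW10* were too low to be tested. One gene, *FBXO32*, was chosen by its fold change between these very libraries, so its values are given as a description with no test. The other genes entered by name, but the family as a whole was proposed with results of these data known, so its counts are descriptive too.

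The lactate group was WPMY-1 cells given 24 mM lactate for 48 h (n = 3 libraries), and the control group was the same line without lactate (n = 3 libraries). The labels describe biological replicates, all of 1 cell line, and give no batch or pairing. In the study's methods the lactic acid was brought to a slightly acidic pH, in a medium free of bicarbonate, and the pH of the control medium is not stated, so lactate and acidity cannot be told apart. The libraries of poly(A) RNA held 20392320, 23395292 and 24055634 counts in lactate cells and 46505372, 20238653 and 24236650 counts in control cells. All 9 fibroblast and myofibroblast markers examined were present. *VIM* was the highest, at 2676 CPM (counts divided by the TMM-scaled library size and multiplied by 1e6) in lactate cells and 2797 CPM in control cells. *FAP* was the lowest, at 1.12 CPM in lactate cells and 2.01 CPM in control cells (log2 fold change -0.82, edgeR adjusted p = 0.22). The epithelial *EPCAM*, *CDH1* and *KRT5* and the leukocyte *PTPRC* and *CD3E* stayed below 0.4 CPM in every library, and *KLK3* was not among the genes listed. The leukocyte list also held *CD68*, which averaged 91.1 CPM in lactate cells and 57.4 CPM in control cells. The 3 endothelial markers summed to at most 1.28 and 1.29 CPM in lactate and control libraries. The epithelial list was not negative as a whole, since its keratins *KRT8* and *KRT18* were expressed in both groups. *KRT18* averaged 864 CPM in lactate cells and 936 CPM in control cells, and *KRT8* 87.2 and 67.6 CPM in lactate and control cells. Of these marker lists *TAGLN* (log2 fold change 1.57, edgeR adjusted p = 0.00548), *CNN1* (1.09, adjusted p = 0.0231) and *CD68* (0.67, adjusted p = 0.028) were higher with lactate, and their part in the results was not tested.

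In an SCF ligase the scaffold *CUL1* holds the RING protein *RBX1* at one end, which recruits the ubiquitin-charged enzyme, and *SKP1* at the other end, which binds the F-box of an exchangeable adaptor. The adaptor chooses the substrate. FBXW adaptors bind through WD repeats, FBXL adaptors through leucine-rich repeats, and FBXO adaptors carry other domains or none that is recognised. NEDD8 attached to the cullin switches the ligase on, the COP9 signalosome removes it, and CAND proteins exchange one adaptor for another. RNA alone was measured here, not protein level or ligase activity.

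*FBXO32* encodes atrogin-1 (also called MAFbx), best known as a muscle ubiquitin ligase adaptor whose transcript is raised by FoxO factors during muscle wasting. It lies on chromosome 8 (123497889 to 123541206, minus strand, GRCh38). Its level was 15.0, 17.0 and 11.8 CPM in lactate libraries, against 73.9, 73.3 and 78.0 CPM in control libraries, which rested on 286, 411 and 289 counts in lactate cells and 3222, 1539 and 1982 counts in control cells. The groups did not overlap, and the highest lactate library lay far below the lowest control library. The mean was 14.6 ± 2.61 CPM in lactate cells and 75.1 ± 2.58 CPM in control cells (SD, n = 3 each), a log2 fold change of -2.36 (SE 0.18), or 5.13-fold lower with lactate. It was the lowest of the 60 tested genes of the family, ranking 30th lowest of all 13188 tested genes and 5th lowest of the 8869 genes that averaged at least 10 CPM. The rank among all genes moved with the setting: it was 63rd of 13353 genes without lactate replicate 3, and 244th with no filter and 262nd with DESeq2 among all 15924 genes, where barely read genes enter. It was the only 1 of the 60 with a log2 fold change below -1.0, so a wide gap separated it from the rest. In RNA from whole cultures, fewer cells with the transcript and less of it per cell cannot be told apart. No annotated exon of another gene overlapped it, and its fold change stayed between -2.15 and -2.48 under every alternative processing tried.

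**Figure D1:**
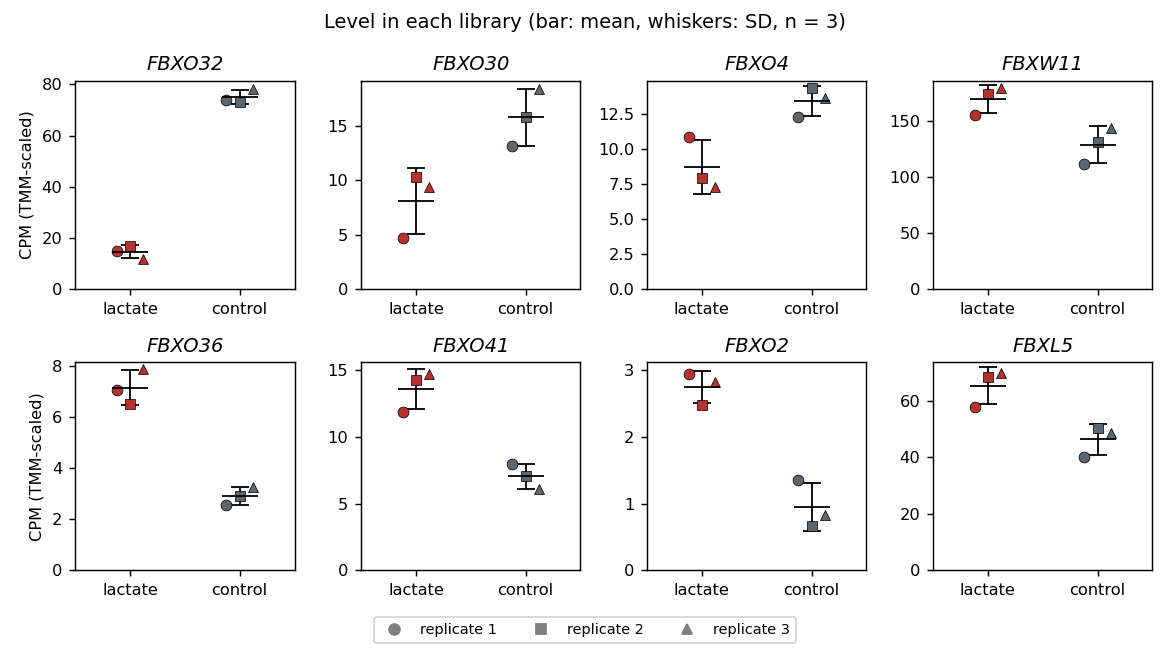
TMM-scaled CPM (y axis, linear, from 0) of 8 F-box genes in each library, with lactate cells on the left and control cells on the right of each panel. Symbols are single libraries, the long bar is the mean and the whiskers are the SD of 3 libraries; *FBXO32* lies between 11.8 and 17.0 CPM in lactate cells and between 73.3 and 78.0 CPM in control cells.

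The summed level of all 60 F-box symbols was almost the same in the 6 libraries, at 1800, 1804 and 1795 CPM in lactate cells and 1743, 1755 and 1738 CPM in control cells. Within that sum the share of *FBXO32* was 0.812 ± 0.143% in lactate cells and 4.30 ± 0.166% in control cells (SD, n = 3 each). By CPM it stood 32nd of the 60 symbols in lactate cells and 7th in control cells. Its closest relative in sequence, *FBXO25*, had 7.15, 5.87 and 6.18 CPM in lactate libraries and 8.30, 5.48 and 5.04 CPM in control libraries. The *FBXO25* groups overlapped (log2 fold change 0.02, SE 0.24, edgeR adjusted p = 0.966). *FBXO30*, which like *FBXO32* takes part in muscle wasting in mice, had 4.68, 10.3 and 9.42 CPM in lactate libraries and 13.2, 15.9 and 18.5 CPM in control libraries. The *FBXO30* groups did not overlap, yet the difference missed the threshold (log2 fold change -0.95, SE 0.29, edgeR adjusted p = 0.0705). *TRIM63*, the muscle RING ligase usually named beside atrogin-1, was too low to be tested, with a mean of 0.0964 CPM in lactate cells and 0.407 CPM in control cells.

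Since *FBXO32* is given no test, calls were counted over the other 59 tested genes. Of these, 4 (6.78%) passed an adjusted p of 0.05 in the edgeR quasi-likelihood test, beside 9.43% of all tested genes. Higher with lactate were 3 of them (*FBXO2*, *FBXO36* and *FBXO41*), beside 5.29% of all genes, and 1 was lower, beside 4.14%. The median log2 fold change was 0.04 over the 60 genes and -0.02 over all tested genes. The groups did not overlap for 18 of the 59 genes, beside 32.6% of all genes, 15 of them with lactate above (17.3% of all genes) and 3 with lactate below (15.3%). Most members moved little, with 44 of 60 (73.3%) between -0.5 and 0.5 on the log2 scale, beside 69.7% of all genes. By class, 3 of the other 32 *FBXO* genes were called, all higher, and none of 8 *FBXW* or 4 core genes was called in edgeR. At an unadjusted p under 0.05, 2 of the *FBXW* genes and 0 of the core genes passed in edgeR, beside 27.8% of all genes, and DESeq2 called 1 *FBXW* gene, *FBXW9*, and 0 core genes. With DESeq2, 9 members other than *FBXO32* were called, beside 15% of all genes, 6 of them higher (7.68% of all genes) and 3 lower (7.35%). The number called moved with single libraries in the family as in the whole table. Without control replicate 1, edgeR called 11 of the other members, beside 23.1% of all genes. It called 0 of them without control replicate 2 (1.28% of all genes) or without lactate replicate 3 (1.56%), where 7 and 9 of the 60 had an unadjusted p under 0.05, beside 17.6% and 20.2% of all genes. At a minimum of 10 CPM, 1 of 42 passed, *FBXO41*, beside 8.07% of all genes.

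**Figure D2:**
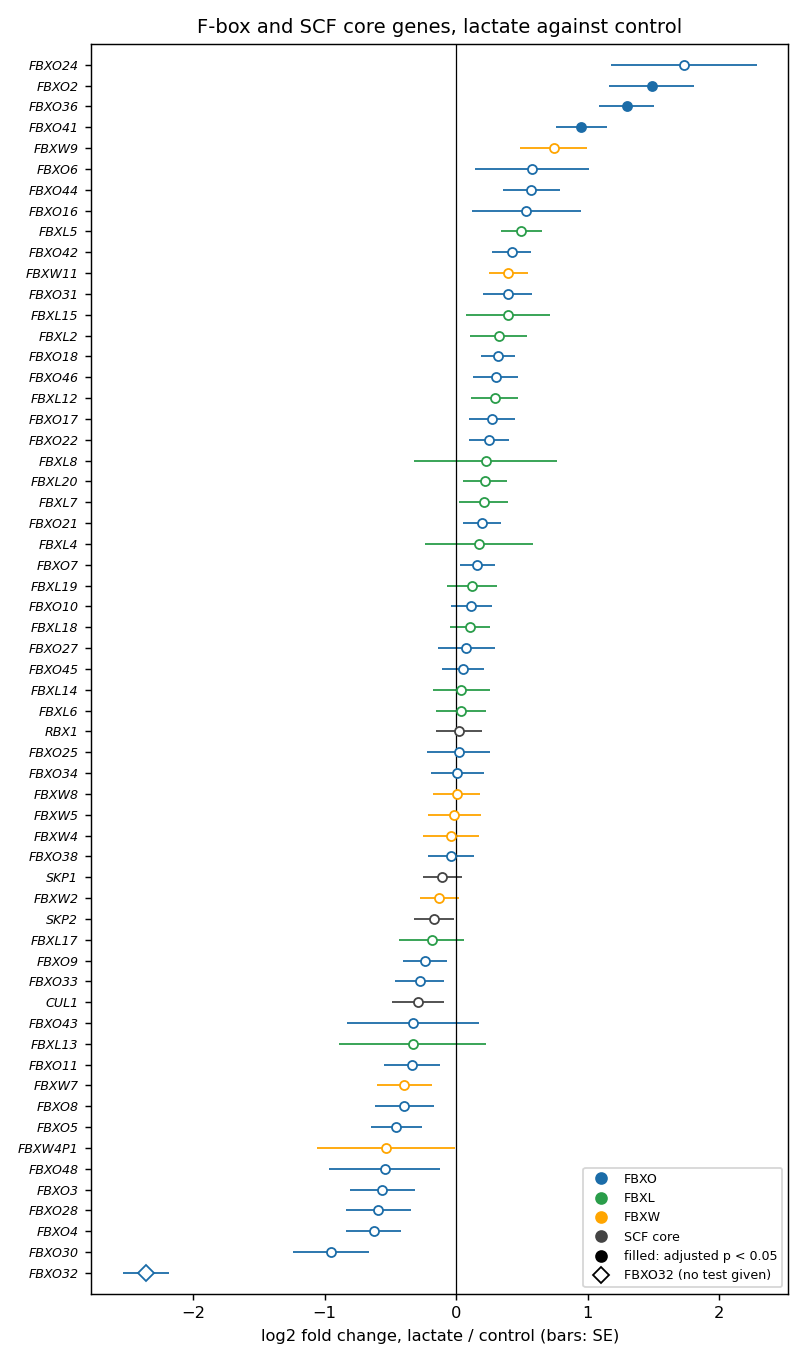
Log2 fold change of lactate over control cells (x axis; bars are SE) for 59 of the 60 tested genes, ordered by size and coloured by class. Filled points passed an adjusted p of 0.05, and the diamond is *FBXO32* at -2.36, for which no test is given; 44 genes lie between -0.5 and 0.5.

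*FBXO36* (chromosome 2, 229922302 to 230013109, plus strand) rose with lactate. It had 7.05, 6.49 and 7.86 CPM in lactate libraries, against 2.57, 2.90 and 3.27 CPM in control libraries. Every lactate library was higher than every control library, and the log2 fold change was 1.30 (SE 0.21, 2.46-fold, edgeR adjusted p = 0.00915). Leaving out control replicate 2 or lactate replicate 3 raised its adjusted p to 0.0661 and 0.0575, and the call held under the other settings that kept the gene.

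*FBXO2* (chromosome 1, 11637018 to 11655785, minus strand) encodes an adaptor that recognises high-mannose glycans on misfolded glycoproteins. It was low throughout, at 2.94, 2.48 and 2.83 CPM in lactate libraries and 1.35, 0.667 and 0.827 CPM in control libraries. The groups did not overlap, with a log2 fold change of 1.48 (SE 0.32, 2.80-fold, edgeR adjusted p = 0.0262). *FBXO2* shares 7.82% of its exon bases with *FBXO44* on the opposite strand, which averaged 13.8 CPM in lactate cells and 9.25 CPM in control cells. Whether the counting kept reads of these 2 genes apart is not known. *FBXO41* (chromosome 2, 73254682 to 73284431, minus strand), a brain-enriched gene in mice, had 11.9, 14.2 and 14.7 CPM in lactate libraries and 7.93, 7.10 and 6.06 CPM in control libraries. It too rose in all 3 lactate libraries (log2 fold change 0.95, SE 0.19, 1.93-fold, edgeR adjusted p = 0.0206). Both calls were lost when any of several single libraries was left out: for *FBXO41* control replicates 2 and 3 and lactate replicates 2 and 3 (adjusted p 0.0641 to 0.12), and for *FBXO2* every library but control replicate 1 (0.056 to 0.132).

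Several other adaptors had groups that did not overlap without passing the threshold. *FBXL5*, which senses iron and degrades the iron regulatory protein IRP2, had 57.7, 68.3 and 69.9 CPM in lactate libraries and 40.2, 50.4 and 48.4 CPM in control libraries (log2 fold change 0.50, SE 0.16, edgeR adjusted p = 0.0781). *FBXW11* encodes one of the paired β-TrCP adaptors for phosphorylated β-catenin and IκB, and had 155, 174 and 179 CPM in lactate libraries against 111, 132 and 144 CPM in control libraries (log2 fold change 0.40, adjusted p = 0.121). *FBXO42*, an adaptor reported for p53, had 31.6, 34.7 and 31.8 CPM in lactate libraries and 24.8, 23.7 and 24.7 CPM in control libraries (log2 fold change 0.42, adjusted p = 0.1). All 3 of these were above control in every lactate library. *FBXW9* had 25.7, 17.7 and 20.8 CPM in lactate libraries and 17.6, 10.4 and 10.2 CPM in control libraries, where the lowest lactate and highest control library were nearly equal (log2 fold change 0.74, adjusted p = 0.098). On the lower side, *FBXO4*, an adaptor reported for cyclin D1, had 10.9, 7.94 and 7.29 CPM in lactate libraries and 12.3, 14.4 and 13.6 CPM in control libraries (log2 fold change -0.63, adjusted p = 0.0863). Called by DESeq2 in addition were *FBXL5*, *FBXO42* and *FBXW9* (higher) and *FBXO30* and *FBXO4* (lower).

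*FBXO24* had the largest positive fold change of the family, 1.73 on the log2 scale, from very few reads. Its level was 1.58, 0.662 and 0.532 CPM in lactate libraries and 0.229, 0.190 and 0.394 CPM in control libraries, so lactate replicate 1 stood well above the rest (SE 0.56, edgeR adjusted p = 0.0817). Whether the counting used strand is not given in the sources used here, so reads of overlapping genes may be mixed. An antisense gene, *PCOLCE-AS1*, covers 26.69% of its exon bases and differed by 1.15 on the log2 scale (adjusted p = 0.101). *FBXO16* shares 51.16% of its exon bases with *ZNF395* on the same strand. *ZNF395* averaged 64.0 ± 3.05 CPM in lactate cells and 34.7 ± 4.77 CPM in control cells (log2 fold change 0.88, adjusted p = 0.0122), and *FBXO16* averaged 1.04 ± 0.222 CPM in lactate cells and 0.736 ± 0.320 CPM in control cells (0.53, adjusted p = 0.422), so the *FBXO16* value is uncertain.

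None of the 4 SCF core genes was called. *SKP1* had 298, 245 and 220 CPM in lactate libraries and 273, 275 and 272 CPM in control libraries (log2 fold change -0.10, SE 0.15, edgeR adjusted p = 0.671). *CUL1* had 56.3, 89.3 and 78.7 CPM in lactate libraries and 76.7, 96.2 and 101 CPM in control libraries (-0.29, SE 0.20, adjusted p = 0.364). *RBX1* had 85.1, 65.4 and 58.3 CPM in lactate libraries and 68.4, 76.0 and 61.7 CPM in control libraries (0.02, SE 0.18, adjusted p = 0.952). The groups overlapped for these 3 genes, as for *SKP2*, and lactate replicate 1 was the highest lactate library for *SKP1* and *RBX1* but the lowest for *CUL1*. *SKP2*, itself the adaptor for the cell cycle inhibitor CDKN1B, had 75.2, 79.3 and 76.1 CPM in lactate libraries and 72.4, 94.4 and 92.7 CPM in control libraries (-0.17, SE 0.15, adjusted p = 0.483). With replicate 1 of each group left out, *SKP1*, *SKP2* and *CUL1* were called lower, in a fit of 4 libraries that called 47.4% of all genes (24.8% of all genes lower). With the GC and length trend of each library removed, *SKP1* stood at 0.25, *SKP2* at 0.14, *RBX1* at 0.27 and *CUL1* at -0.12. None was called in that fit (edgeR adjusted p 0.233 to 0.566).

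The 5 adaptors of the glycoprotein-binding subfamily (*FBXO2*, *FBXO6*, *FBXO17*, *FBXO27* and *FBXO44*) all had positive log2 fold changes, with a median of 0.57, and 1 of them, *FBXO2*, was called, beside 9.43% of all genes. All 5 are among the 20 members with the highest GC content, of which 18 had positive fold changes. With the GC and length trend of each library removed, the fold changes were 1.23 for *FBXO2*, 0.35 for *FBXO6*, 0.32 for *FBXO44*, 0.00 for *FBXO17* and -0.14 for *FBXO27*. *FBXO44* had 16.4, 13.1 and 11.9 CPM in lactate libraries and 10.9, 9.43 and 7.40 CPM in control libraries, without overlap (0.57, edgeR adjusted p = 0.125). *FBXO6* had 5.99, 3.02 and 2.58 CPM in lactate libraries and 4.06, 1.57 and 1.89 CPM in control libraries, with replicate 1 the highest in both groups (0.58, adjusted p = 0.407). *FBXO17* (0.27) and *FBXO27* (0.08) overlapped between groups. *FBXO2*, *FBXO44* and *FBXO6* are neighbours on chromosome 1. In RefSeq (GRCh38.p14) *FBXO2*, on the minus strand, starts at 11654429 and *FBXO44*, on the plus strand, at 11654407, so the starts lie 22 bases apart on opposite strands. The 2 genes share 267 exon bases in the annotation, and *FBXO6* begins 797 bases after *FBXO44* ends. *FBXO17* and *FBXO27* are 14.8 kb apart on chromosome 19.

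Levels between genes were compared as CPM per kilobase of the longest transcript, which assumes reads along the whole transcript. The study also describes a 3′ end kit, for which division by length would not apply. On this scale *FBXW5* stood first at 79.3 (78.9 in lactate cells and 79.7 in control cells), ahead of *RBX1* (36.9), *FBXW11* (32.9), *SKP1* (27.9) and *CUL1* (27.1). *FBXO18*, a helicase with an F-box, led its class at 25.5, followed by *FBXO21* (18.1) and *FBXO17* (14.5), and *FBXL18* (18.7), *FBXL5* (16.5) and *FBXL19* (14.3) led the FBXL class. *FBXW2*, at 11.1, was the third of its class. Class medians were 4.67 for FBXO, 3.80 for FBXL, 8.40 for FBXW and 27.5 for the core. The order depended on the length used: with the median length of the coding transcripts, an alternative added after seeing the data, *SKP1* moved from 4th to 1st, *FBXL5* from 10th to 3rd and *FBXO18* from 6th to 17th. *FBXO32* stood 26th by the one length and 27th by the other, at 2.17 in lactate cells and 11.1 in control cells. The lowest tested genes of each class were *FBXL13* (0.157) and *FBXL4* (0.664), *FBXO48* (0.187) and *FBXO24* (0.263), and the pseudogene *FBXW4P1* (0.196) and *FBXW7* (1.86). *FBXW10* had 0 counts in all 3 lactate libraries and 0.436, 0.0476 and 0 CPM in control libraries.

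**Figure D3:**
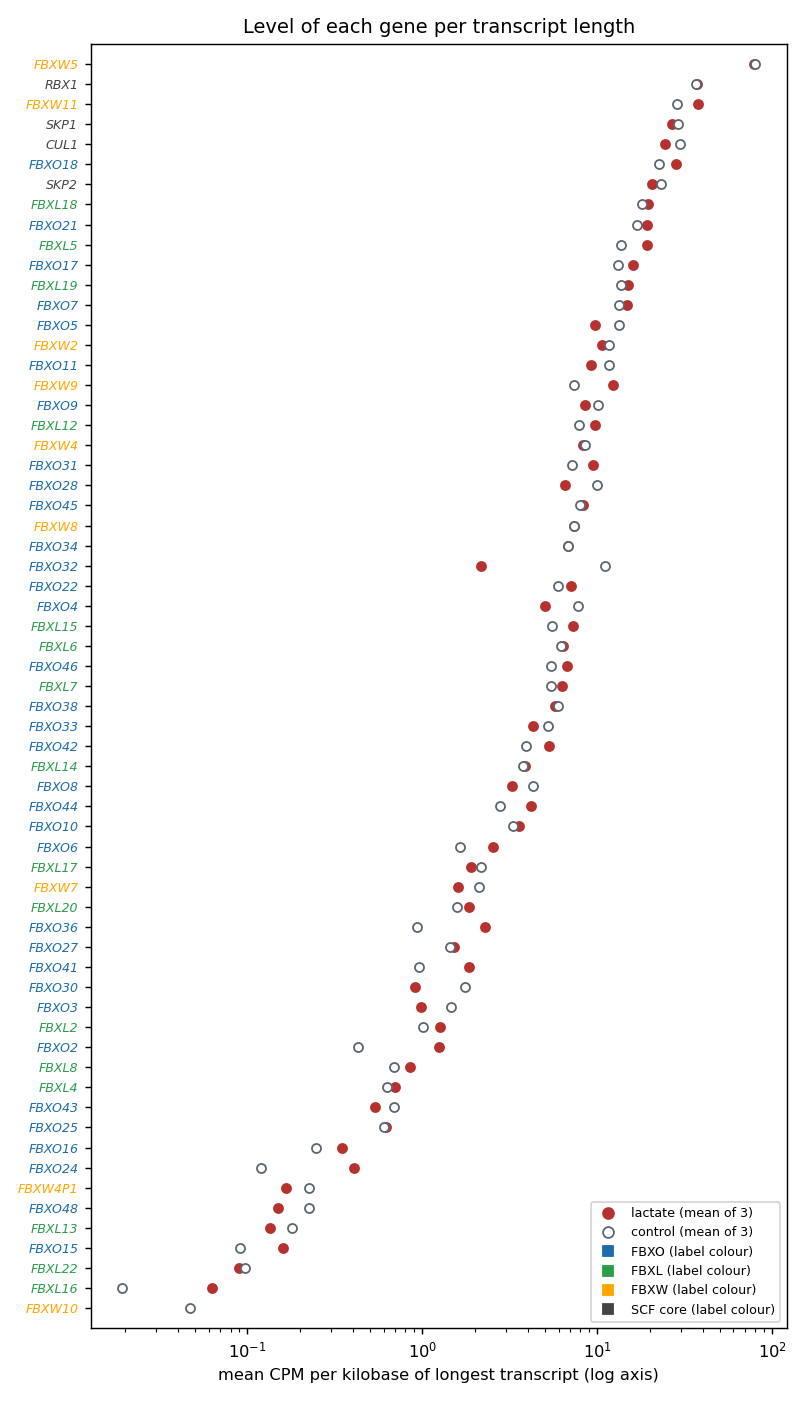
Mean CPM per kilobase of the longest transcript (x axis, log scale) of 63 of the 64 genes in lactate cells (filled) and control cells (open), ordered by the mean of both and with label colours for class. *FBXW5* leads at 79.3 and *FBXO32* has the widest gap among genes above 1, at 2.17 in lactate cells and 11.1 in control cells; *FBXW10* has no lactate point because it was at 0.

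Replicates of these genes varied about as much as those of other genes. The median coefficient of variation was 15.7% in lactate cells and 15.3% in control cells over the 60 members, beside 16.6% in lactate cells and 18.2% in control cells over all tested genes. *FBXO32* varied by 17.8% among lactate libraries and by 3.44% among control libraries. Of the tested members *FBXL8* (65.8%), *FBXO6* (54.0%) and *FBXO43* (50.6%) had the widest control spread, all at a control mean under 3 CPM. The tightest was *SKP1*, at 0.612% among control libraries but 15.7% among lactate libraries.

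The fold changes followed the GC content of the transcripts, in the family as in the whole table. The 20 members with the lowest GC content (34.18 to 42.72%) had a median log2 fold change of -0.28, with 6 positive and 14 negative, beside -0.34 for all genes in that range. The 20 with the highest (55.67 to 69.36%) had a median of 0.28, with 18 positive and 2 negative, beside 0.26 for all genes in that range. Over the 60 members Spearman's rho of fold change with GC content was 0.55, and over all genes 0.52, a description only since all points share the same 6 libraries. The trend differed between single libraries as well. As a log2 difference between the most and least GC-rich 10% of genes it was 0.88, 0.01 and 0.20 in lactate libraries and 0.34, -0.51 and -0.90 in control libraries, so a bias of the libraries and an effect of lactate cannot be told apart. Once the trend of each library was taken out, the medians were 0.04 for the lowest and -0.02 for the highest GC content. The trend was fitted over all genes, these members included, so medians near 0 follow from its removal and are no separate result. In that fit 11 members other than *FBXO32* were called, beside 22.9% of all genes, 6 of them higher (10.7% of all genes) and 5 lower (12.2%).

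**Figure D4:**
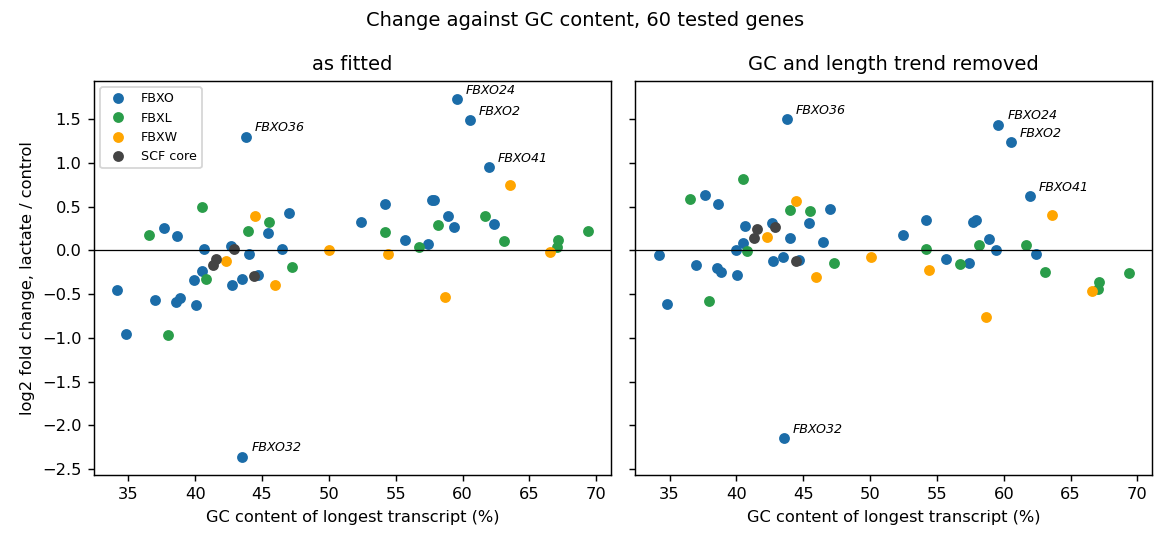
Log2 fold change of lactate over control cells (y axis) against GC content of the longest transcript in percent (x axis) for the 60 tested genes, as fitted (left) and with the GC and length trend of each library removed (right). Spearman's rho is 0.55 on the left and -0.07 on the right, where a value near 0 follows from the removal itself. *FBXO32* is the lowest point in both panels.

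After that removal *FBXO36* (log2 fold change 1.50, edgeR adjusted p = 0.000742), *FBXO2* (1.23, adjusted p = 0.0124) and *FBXO41* (0.62, adjusted p = 0.0104) kept their calls, and *FBXO32* stood at -2.15. *FBXL5* (0.81, adjusted p = 0.00103), *FBXW11* (0.57, adjusted p = 0.00181) and *FBXO42* (0.47, adjusted p = 0.0197) were then called higher. *FBXO30* (-0.61, adjusted p = 0.028) and *FBXW5* (-0.47, adjusted p = 0.00402) were then called lower. As fitted, *FBXW5* was flat, with overlapping groups (-0.02, adjusted p = 0.966), and of 13 alternatives it passed only in this 1. *FBXL6* and *FBXL19* turned from 0.04 and 0.12 to -0.45 and -0.36 and were called as well. Their transcripts are rich in GC (67.08% for *FBXL6* and 67.14% for *FBXL19*), and the turn is the size of the trend taken out. Apart from that turn, both overlap other genes. *FBXL6* shares 31.67% of its exon bases with *SLC52A2* on the opposite strand, and *FBXL19* 2.26% with *FBXL19-AS1*, which fell by 1.24 on the log2 scale (adjusted p = 0.0156).

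The rest of the SCF pathway was read from lists of its other parts, chosen with earlier results of these data known. Over 6 lists 9 of 95 tested genes were called, 7 higher and 2 lower, beside 9.43% of all genes. One list held 23 genes for NEDD8 attachment and removal, together with the CAND exchange factors and the RBX1-binding *GLMN*. Of these genes 1 was higher and 2 were lower, beside 5.29% and 4.14% of all genes. Their median was -0.21, beside -0.02 for all tested genes. *COPS5*, the catalytic subunit of the COP9 signalosome, had 25.6, 25.8 and 23.0 CPM in lactate libraries and 39.5, 48.0 and 46.1 CPM in control libraries (log2 fold change -0.84, SE 0.15, edgeR adjusted p = 0.015). *GLMN*, which binds RBX1 and blocks its access to the ubiquitin enzyme, had 10.4, 11.3 and 9.46 CPM in lactate libraries and 15.2, 22.4 and 20.6 CPM in control libraries (-0.90, SE 0.20, adjusted p = 0.0286). *CAND2*, of the adaptor exchange factors, had 22.0, 22.5 and 26.0 CPM in lactate libraries and 13.5, 11.9 and 12.6 CPM in control libraries (0.89, SE 0.17, adjusted p = 0.016). The more abundant exchange factor *CAND1* had a negative fold change and overlapping groups. It averaged 87.4 CPM in lactate cells and 124 CPM in control cells (-0.50, SE 0.30, adjusted p = 0.308). None of the 3 called genes overlapped between groups. All 3 calls were lost on leaving out control replicate 2, control replicate 3 or lactate replicate 3 (adjusted p 0.0563 to 0.154). That of *GLMN* was also lost without lactate replicate 1 or 2 (0.0557 and 0.0631), and that of *COPS5* with the GC and length trend removed (-0.48, adjusted p = 0.0826).

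No gene was called among 9 tested F-box genes under other symbols (median 0.21), 14 ubiquitin, E1 and E2 genes (-0.01) and 8 genes of other cullins and their RING partner (-0.28). The median of all tested genes was -0.02. At an unadjusted p under 0.05 edgeR passed 1, 2 and 2 genes of these 3 lists, beside 27.8% of all genes, and DESeq2 called 1 gene of the first, *LMO7* (edgeR log2 fold change 0.66, adjusted p = 0.0898), and 0 of the others. *KDM2A*, an F-box histone demethylase, averaged 149 CPM in lactate cells and 159 CPM in control cells, and *TSPAN17* 141 and 113 CPM in lactate and control cells. The ubiquitin gene *UBB* (log2 fold change -0.03) and the scaffolds *CUL4A* (-0.24) and *CUL4B* (-0.47) were among the most abundant of their lists. Over 13 alternatives *CUL4A* ran from -0.27 to 0.02 and *CUL4B* from -0.65 to -0.08.

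Of 16 tested genes among FoxO factors, their regulators and muscle wasting genes, 3 were called higher, beside 5.29% of all genes, and 0 lower, with a median of 0.38. *FOXO4* had 12.8, 14.1 and 15.5 CPM in lactate libraries and 9.43, 7.38 and 7.24 CPM in control libraries (log2 fold change 0.81, edgeR adjusted p = 0.0333). The growth arrest genes *GADD45A* (0.77, adjusted p = 0.0222) and *GADD45B* (0.83, adjusted p = 0.0385) were the other 2. *FOXO1* (1.02, adjusted p = 0.075) and *FOXO3* (-0.54, adjusted p = 0.168) missed the threshold. The calls of all 3 were lost without control replicate 2 or 3 or lactate replicate 2 or 3, and that of *GADD45B* also without lactate replicate 1 (adjusted p 0.0568 to 0.175). Skeletal muscle markers were at or near 0: 6 of 8 were not among the genes listed, and the other 2, *ACTA1* and *MYOD1*, summed to at most 0.290 CPM in lactate libraries and 0.0917 CPM in control libraries.

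Among 25 genes whose proteins are known substrates of F-box adaptors, 3 were called higher, beside 5.29% of all genes, and 0 lower, with a median near 0. *MYC*, a substrate of FBXW7 and SKP2, had 274, 240 and 264 CPM in lactate libraries and 134, 139 and 126 CPM in control libraries (log2 fold change 0.96, SE 0.13, edgeR adjusted p = 0.00507), and the call held under every setting tried. *PER1*, a clock repressor degraded through β-TrCP, rose (0.89, adjusted p = 0.0176), as did *CDKN1A*, a substrate of SKP2 (0.68, adjusted p = 0.0239). Both of those calls were lost without control replicate 2 or 3 or lactate replicate 3, and that of *CDKN1A* also without lactate replicate 2 (adjusted p 0.0614 to 0.143). DESeq2 called 7 of the 25, beside 15% of all genes, with *CCND1* (edgeR log2 fold change 0.49) higher and *CCNE2* (-0.99) and *NFKBIA* (-0.61) lower among the additional calls. These are transcripts, and protein turnover was not measured.

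Promoter sequence was a property that the choice of genes did not use. RefSeq promoters (GRCh38.p14, 250 bases before to 50 after the start) were matched for 49 of the 64 genes, *FBXO32* not among them, and 4 motifs were searched on both strands. The FoxO motif GTAAACA was found in 1 of the 49 (2.04%), beside 2.61% of all 15843 promoters, and the cAMP response element TGACGTCA in 2 (4.08%), beside 2.59%. The AP-1 motif TGANTCA and the ATF4 element TGATGNAA were found in none of the 49, beside 5.75% and 2.53% of all promoters. None of the motifs stood in the promoters of *FBXO2*, *FBXO36* or *FBXO41*, the genes that rose. The matched sites are shown because they are the only ones found in the 49 promoters searched, with 30 bases each on the gene's strand and the motif in capitals.
FBXL20 (chr17:39402658-39402687, minus strand): tcccgccaaagTGACGTCAggccgaagctc
FBXO34 (chr14:55271338-55271367, plus strand): gggccggcgcgTGACGTCActccgttttag
FBXO8 (chr4:174283710-174283739, minus strand): tatagcgaatcGTAAACAacagaaataaaa
None of these 3 genes was called: the log2 fold change was 0.22 for *FBXL20* (edgeR adjusted p = 0.417), 0.01 for *FBXO34* (adjusted p = 0.981) and -0.39 for *FBXO8* (adjusted p = 0.277). The last stretch shown is the 100 bases before the start of *FBXO41*, one of the genes that rose, in which 77.0% of the bases are G or C and no capitals are used.
FBXO41 (chr2:73284479-73284578, minus strand): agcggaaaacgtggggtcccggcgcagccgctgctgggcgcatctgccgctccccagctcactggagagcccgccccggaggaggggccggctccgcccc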

How the data were processed

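RNA-seq of 3 lactate and 3 control libraries of WPMY-1 cells was analysed from the raw counts per gene that the authors deposited. The study's methods give the BaseSpace RNA-Seq Alignment App, and STAR, DESeq2 and hg38 are listed in the submitters' processing notes, but their versions, the annotation and the strand setting are not given in the sources used here. The labels describe a directional poly(A) kit, and the study's methods a 3′ end kit. Groups came from the treatment label. Replicate numbers were given here in deposition order and only name a library.

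Counts were fitted with edgeR 4.0.16 (R 4.3.3; TMM scaling, filterByExpr, quasi-likelihood F test, group as the only term), with p-values adjusted over 13188 genes by Benjamini-Hochberg and a threshold of 0.05. The fit was tried on simulated data in which 200 of 13188 genes were given a difference. Its recovery rate was 94% for 4-fold differences, 55.2% for 2-fold ones and only 4.55% for 1.5-fold ones. False calls came to 4.63%. A gene that was not called may therefore still differ by 1.5-fold or by 2-fold. The simulated noise was drawn gene by gene, without the GC trend or the replicate 1 shift of the real libraries, so recovery there may differ. Tested genes held 99.96% of counts, and the common biological coefficient of variation was 20.2%. All library pairs differed by more than sampling noise (smallest chi-square per degree of freedom 7.13, between lactate replicates 2 and 3). Replicate 1 stood apart within both groups. Control replicate 1 differed from control replicates 2 and 3 by 66.2 and 117, and these 2 from each other by 10.4. Lactate replicate 1 differed from lactate replicates 2 and 3 by 68.9 and 59.4. The cause was not tested. Levels are TMM-scaled CPM, and SE is the log2 fold change divided by the root of F. Symbols were matched to GENCODE 29 on GRCh38 (15265 of 15924, 95.9%) for length, GC content and overlaps.

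The members, lists and rules were chosen with earlier results of these data known. Named genes were *FBXO32*, the core genes, each F-box member past the threshold, the 3 highest and 2 lowest tested per class by level per kilobase, the 3 with the widest control spread and, per list, up to 4 called genes or the 2 most expressed. Other members named, and list genes beyond that rule (such as *CAND1*, *FOXO1*, *FOXO3* and *TRIM63*), were picked after their values were seen. A few genes that the rule names are not reported here. Alternatives were DESeq2 1.42.0, other scalings and filters, leaving out libraries, and removal of GC and length trends. The labels call the libraries biological replicates.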

Additional observations from a re-analysis of the deposited data

How the results depend on the processing

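No paired analysis was possible because the labels carry no replicate numbers to pair the libraries by. *FBXO32* stayed the lowest tested member in every alternative except no filter, where the almost unread *FBXW10* was lower, and it moved by more than its spread only with the GC and length trend removed (-2.15). Without that trend *FBXL19* reversed to -0.36 and *FBXL6* to -0.45, which follows from the trend taken out for their GC content and length. Members called were 10 of 63 with DESeq2 (beside 15% of all genes), 2 of 43 at a minimum of 10 CPM (8.07%) and 12 of 60 with the trend removed (22.9%). Without replicate 1 of both groups 30 of 59 were called, beside 47.4% of all genes. With single libraries left out the count ran from 1 of 61 without control replicate 2 (1.28%) to 12 of 61 without control replicate 1 (23.1%). These counts include *FBXO32*, for which no test is given. For SCF partner genes the counts were 16 of 96 with DESeq2 (beside 15% of all genes) and 24 of 95 with the trend removed (22.9%). Of those 24, 18 were higher (10.7% of all genes) and 6 lower (12.2%). The partner counts were 49 of 95 without replicate 1 of both groups (47.4%), and 1 to 31 of 95 with single libraries left out (1.28% to 23.1%). For all genes the counts were 2161 with DESeq2, 716 at a minimum of 10 CPM and 2935 with the trend removed. They were 6295 without replicate 1 of both groups, and 172 (without control replicate 2) to 3092 (without control replicate 1) with single libraries left out. Members under about 3 CPM rest on few reads, so their fold changes have wide errors. With only the 250 bases before the start searched, the motif shares of members did not change.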
